A study of Mus musculus with 4 samples.

Results

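Imprinted genes were followed through the nuclei of 4 mouse hearts. The 32 genes were taken by symbol from a list of genes known to be imprinted in the mouse, and all 32 are among the 21884 genes counted. Of these, 16 are known mainly for expression of the paternal copy, 15 for expression of the maternal copy, and Gnas gives transcripts of either kind according to the isoform. The hearts came from male wild-type C57BL/6J mice that were themselves injured at day 1 after birth, and 1 whole heart per library was taken 21 days after that injury. The fathers of 2 offspring had been injured (injured-father libraries 1 and 2), and the fathers of the other 2 had not (uninjured-father libraries 1 and 2). All 4 hearts are injured hearts, so the comparison is between fathers, not between injured and uninjured offspring. The labels do not state which fathers, mothers and litters the hearts came from. The p-values set the difference between groups against the spread between hearts within a group. If hearts of a group share a father or litter, they do not speak to variation between fathers.

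Genomic imprinting marks a gene by DNA methylation in the egg or the sperm, and the mark decides which parental copy is read in the offspring. Paternally expressed genes are often known as promoters of fetal growth and maternally expressed genes as brakes on it, and many of both kinds are turned down after birth. Several maternally expressed genes, such as Phlda2, Slc22a3 and Osbpl5, are known to be imprinted mainly in the placenta, and Ube3a in neurons. The counts do not separate the parental copies, so every value is the sum over both.

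Filtering left 8251 and 9537 nuclei for the injured-father hearts, against 9416 and 6791 for the uninjured-father hearts. Their UMIs (unique molecular identifiers, each 1 captured RNA molecule) numbered 23551067 and 32862239 with injured fathers, against 31467616 and 15651493 with uninjured fathers. Nuclei were grouped into classes without using the imprinted genes, and named by likeness to marker genes. Every heart held cardiomyocyte-like nuclei, with Ttn, the giant sarcomere protein, at 32970 to 42130 CPM (UMIs per 1000000 UMIs of a class and library). Pairs of libraries shared 23 to 33 nucleus barcodes, at most 0.403% of the smaller library. Levels are compared between classes for each gene and not between genes, because counts from the 3′ end of transcripts are not scaled by gene length. Free RNA in the droplets sets a background, since Ttn stood at 1565 to 3046 CPM in the other named classes, on average over libraries.

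Of the 32 genes, 21 reached 10 CPM, on average over the 4 libraries, in at least 1 of the 9 classes that held 50 or more nuclei in every library. These were 8 paternally expressed genes, 12 maternally expressed genes and Gnas. The class with the highest level differed widely among them, and highest and lowest refer to these 9 classes unless stated. Endocardial-like nuclei (the endocardium lines the chambers) held the highest level of 3 of the 8 paternally expressed genes (37.5%) and of 0 of the 12 maternally expressed genes, against 5.82% of the 11752 genes of the same level. Among the 3, Peg3 and Usp29 start 147 bases apart, and both overlapped the next class. In a further list of imprinted genes, the maternally expressed Igf2r and Pon2 were also highest there. For 5 of the 21 genes (23.8%) the range over the 4 libraries in the top class lay clear of the range in every other one of the 9 classes. This held for 29.7% of all 11752 genes. Classes with too few nuclei, such as adipocyte-like nuclei, were not part of this comparison. Those 5 genes were Plagl1, Sgce, Kcnq1, Ppp1r9a and Gnas. Classes come from the same nuclei, so these are descriptions with no test.

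**Figure D1:**
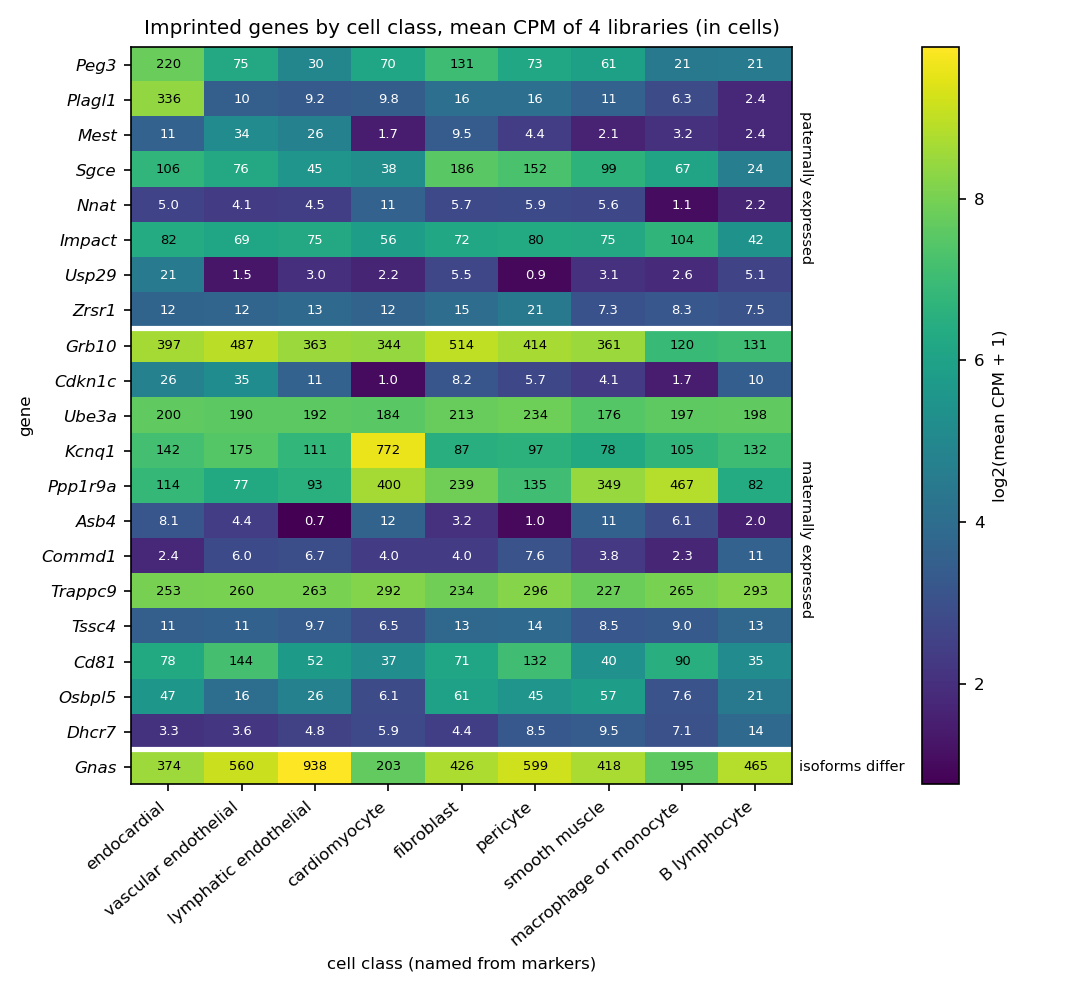
Mean level of the 21 genes that reached 10 CPM, by cell class (columns) and gene (rows, paternally expressed above, maternally expressed below, Gnas last); colour is log2(mean CPM + 1) and the number in each cell is the mean CPM of the 4 libraries. Plagl1 and Peg3 stand at 336 and 220 CPM in endocardial-like nuclei, and Kcnq1 at 772 CPM in cardiomyocyte-like nuclei.

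Plagl1 and Peg3 had their highest levels in endocardial-like nuclei. Stretches around a transcript start of each are shown because both genes lie in regions known for methylation on the maternal copy. Plagl1 (ENSMUSG00000019817, chr10:13060504-13131694, plus strand, GRCm38) encodes a zinc finger protein known to slow cell division. Peg3 (ENSMUSG00000002265, chr7:6703892-6730431, minus strand, GRCm38) encodes another zinc finger protein. Both sequences are RefSeq promoter windows of the GRCm38.p6 assembly, 250 bases before to 50 after a transcript start, at chr10:13090582-13090881 on the plus strand for Plagl1 and chr7:6730370-6730669 on the minus strand for Peg3. They run 5′ to 3′, with CG, the dinucleotide that carries the methylation mark, in capitals. The Plagl1 window lies inside the gene, past the gene start given above.
Plagl1: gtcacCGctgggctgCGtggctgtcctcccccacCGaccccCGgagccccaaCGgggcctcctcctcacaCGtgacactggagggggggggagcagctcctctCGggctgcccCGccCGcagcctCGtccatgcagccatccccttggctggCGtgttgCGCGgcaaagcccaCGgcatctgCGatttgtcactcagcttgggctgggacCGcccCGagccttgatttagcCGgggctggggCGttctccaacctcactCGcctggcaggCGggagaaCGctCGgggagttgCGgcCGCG
Peg3: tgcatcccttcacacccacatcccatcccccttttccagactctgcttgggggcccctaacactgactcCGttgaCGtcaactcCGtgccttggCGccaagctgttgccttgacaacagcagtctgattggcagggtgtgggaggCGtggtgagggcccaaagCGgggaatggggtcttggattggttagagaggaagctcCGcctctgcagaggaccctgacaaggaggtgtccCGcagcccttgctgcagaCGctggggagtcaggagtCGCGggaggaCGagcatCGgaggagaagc

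The Plagl1 window holds 26 CG dinucleotides and the Peg3 window 13, against a median of 7 over all 32851 promoter windows of the table. RefSeq windows were matched for 26 of the 32 genes (42 windows, median of 17 CG). The hexamer TGCCGC, in which Zfp57 is known to bind the methylated imprinted copy, was searched on both strands. It occurs once in the Plagl1 window, as GCGGCA, and not in that of Peg3. It occurs in 11 of the 42 windows (26.2%), which belong to 10 genes, against 11.6% of all windows. The hexamer itself holds a CG, and windows of like CG number were not compared. The motif AANATGGCG, known for the factor YY1, was found only in the Ube3a windows among the 42, in 1 of them (2.38%), against 2.38% of all windows. These are counts of letters, not of bound sites. Usp29, which encodes a ubiquitin-specific protease, starts on the opposite strand 147 bases from the start of Peg3, and their windows share 263 of 300 bases.

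Plagl1 was close to a marker of the endocardial-like class, although it was not used to form it. It stood at 373 and 389 CPM in endocardial-like nuclei of the injured-father libraries, against 278 and 302 CPM in those of the uninjured-father libraries. The next class, fibroblast-like nuclei, held 16.1 and 22.1 CPM with injured fathers, against 13.1 and 13.3 CPM with uninjured fathers. The mean in endocardial-like nuclei was 336 ± 53.8 CPM (SD, n = 4), 20.8 times that in fibroblast-like nuclei, and all 4 libraries showed the same order. Fibroblast-, pericyte-, smooth muscle-, vascular endothelial-, cardiomyocyte- and lymphatic endothelial-like nuclei followed in that order, at means of 16.2 down to 9.16 CPM, and neighbours in it overlapped. Macrophage- or monocyte-like nuclei averaged 6.27 CPM. B lymphocyte-like nuclei held 3 Plagl1 UMIs in all. Endocardial-like nuclei, with 3.47% of all UMIs, gave 43.9% of the Plagl1 UMIs. A further 15.5% came from unnamed nuclei, most of which carried endocardial and fibroblast markers together and which stood at 130 and 212 CPM with injured fathers, against 100.3 and 64.2 CPM with uninjured fathers.

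Peg3 was read in every class, with its highest level in the same class as Plagl1 among the 9. Endocardial-like nuclei held 243 and 309 CPM with injured fathers, against 130 and 196 CPM with uninjured fathers. Fibroblast-like nuclei held 85.1 and 222 CPM with injured fathers, against 101.5 and 116 CPM with uninjured fathers. The ranges of these classes overlap, but endocardial-like nuclei were higher in each of the 4 libraries, by 1.67 times on average. Vascular endothelial-, pericyte-, cardiomyocyte- and smooth muscle-like nuclei lay between 60.6 and 74.9 CPM on average with overlapping ranges, and macrophage- or monocyte-like nuclei were lowest at 20.7 CPM. Adipocyte-like nuclei, too few for a test, stood at 237 and 501 CPM with injured fathers, against 379.5 and 270 CPM with uninjured fathers, the last of these from 4 UMIs.

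Usp29 had few UMIs, 415 in all, and also stood highest in endocardial-like nuclei. It was at 47.3 and 17.0 CPM there with injured fathers, against 15.4 and 5.60 CPM with uninjured fathers. The next class, fibroblast-like nuclei, averaged 5.53 CPM, and endocardial-like nuclei were higher in 4 of 4 libraries although the ranges overlap. Pericyte-like nuclei were lowest, at 0.941 CPM from 6 UMIs.

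Mest and Cdkn1c, of opposite parental origin, were both highest in vascular endothelial-like nuclei. Mest, a paternally expressed gene of the alpha/beta hydrolase family, stood at 39.5 and 30.5 CPM in vascular endothelial-like nuclei with injured fathers, against 28.5 and 38.5 CPM with uninjured fathers. Lymphatic endothelial-like nuclei averaged 26.1 CPM and overlapped with them, while cardiomyocyte-like nuclei held 1.70 CPM. Cdkn1c (chr7:143458339-143461050, minus strand), the maternally expressed cell cycle inhibitor p57Kip2, averaged 35.2 CPM in vascular endothelial-like and 26.3 CPM in endocardial-like nuclei, with overlapping ranges, and 1.04 CPM in cardiomyocyte-like nuclei. Vascular endothelial-like nuclei gave 51.8% of all Mest UMIs and 49.8% of all Cdkn1c UMIs, from 12.6% of all UMIs.

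The other paternally expressed genes had broader patterns. Sgce, the epsilon subunit of the sarcoglycan complex, stood at 168 to 198 CPM in fibroblast-like nuclei and 145.5 to 165 CPM in pericyte-like nuclei, which did not overlap, and at 23.9 CPM in B lymphocyte-like nuclei. Peg10, a gene derived from a retrotransposon that starts 99 bases from Sgce on the opposite strand, had only 69 UMIs. Fibroblast-like nuclei gave 39 of them (56.5%) from 20.8% of all UMIs. Its mean was 3.75 CPM in macrophage- or monocyte-like and 1.81 CPM in fibroblast-like nuclei, with overlapping ranges. Impact, a translational regulator that restrains the kinase Gcn2, was highest in macrophage- or monocyte-like nuclei at 96.7 to 110 CPM, and endocardial-like nuclei overlapped with them at 63.7 to 97.96 CPM. Zrsr1, a splicing factor gene, was highest in pericyte-like nuclei at 20.5 CPM. It lies inside Commd1 on the opposite strand, and the sources do not say whether counting used strand.

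Nnat, which encodes the small membrane protein neuronatin, was highest among the 9 classes in cardiomyocyte-like nuclei, at 8.96 and 7.25 CPM with injured fathers, against 10.0 and 18.7 CPM with uninjured fathers. In the few adipocyte-like nuclei it stood at 50.5 and 146 CPM with injured fathers, against 244 and 675 CPM with uninjured fathers, from 111 UMIs in all. Nnat lies inside Blcap on the opposite strand, and Blcap was also highest in these classes, at 74.4 CPM in cardiomyocyte-like nuclei and 128.5 CPM over all adipocyte-like nuclei. Both counts are uncertain where strand was not used, as are those of Mest, Tssc4, Slc22a3, Nap1l5 and Gnas, which also overlap a gene on the opposite strand.

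Among maternally expressed genes, Kcnq1 (chr7:143106362-143427042, plus strand) was a gene of cardiomyocyte-like nuclei. It encodes the pore subunit of a potassium channel that ends the action potential. In those nuclei it stood at 780 and 715 CPM with injured fathers, against 772 and 821 CPM with uninjured fathers. Vascular endothelial-like nuclei came next at 149 to 188 CPM, so the means differed by 4.41 times and the ranges did not overlap. Cardiomyocyte-like nuclei gave 86.05% of all Kcnq1 UMIs from 47.0% of all UMIs. Cdkn1c, its neighbour in the same imprinted cluster, was at its lowest in those nuclei.

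Grb10, an adaptor that restrains insulin receptor signalling, averaged 514 CPM in fibroblast-like and 487 CPM in vascular endothelial-like nuclei, with overlapping ranges. It was lowest in macrophage- or monocyte-like nuclei, at 86.7 and 112 CPM with injured fathers, against 134 and 146.5 CPM with uninjured fathers. Ppp1r9a, which encodes the actin-binding protein neurabin, stood at 452 to 505 CPM in macrophage- or monocyte-like nuclei and 361 to 430 CPM in cardiomyocyte-like nuclei, which did not overlap. It was lowest in vascular endothelial-like nuclei, at 68.7 to 85.5 CPM. Adipocyte-like nuclei, outside the 9 classes, gave 1.85% of the Ppp1r9a UMIs from 0.985% of all UMIs. Macrophage- or monocyte-like nuclei gave 4.14% from 2.57% of all UMIs.

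Cd81, a tetraspanin of the cell surface, averaged 144 CPM in vascular endothelial-like and 132 CPM in pericyte-like nuclei, with overlapping ranges. Osbpl5, an oxysterol-binding protein gene, averaged 61.1 CPM in fibroblast-like and 57.2 CPM in smooth muscle-like nuclei and 6.06 CPM in cardiomyocyte-like nuclei. Ube3a, a ubiquitin ligase gene, and Trappc9, a vesicle trafficking gene, were nearly even. Ube3a averaged 176 to 234 CPM over the 9 classes and Trappc9 227 to 296 CPM. Asb4 averaged 11.6 CPM in cardiomyocyte-like and 11.1 CPM in smooth muscle-like nuclei, with overlapping ranges. Tssc4, Commd1 and Dhcr7, the last of which makes cholesterol, reached 13.7, 11.3 and 13.7 CPM in their highest classes. Their ranges there overlapped those of other classes. Commd1 overlaps Commd1b on the same strand, so its count is uncertain.

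Gnas, which encodes the stimulatory G protein alpha subunit, was highest among the 9 classes in lymphatic endothelial-like nuclei. It stood there at 1040 and 720 CPM with injured fathers, against 897 and 1094 CPM with uninjured fathers. Pericyte-like nuclei came next at 579 to 612 CPM, clear of that range. In adipocyte-like nuclei it stood at 2492 and 1455 CPM with injured fathers, against 3090 and 202.5 CPM with uninjured fathers, the last of these from 3 UMIs. The counts do not separate its isoforms.

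**Figure D2:**
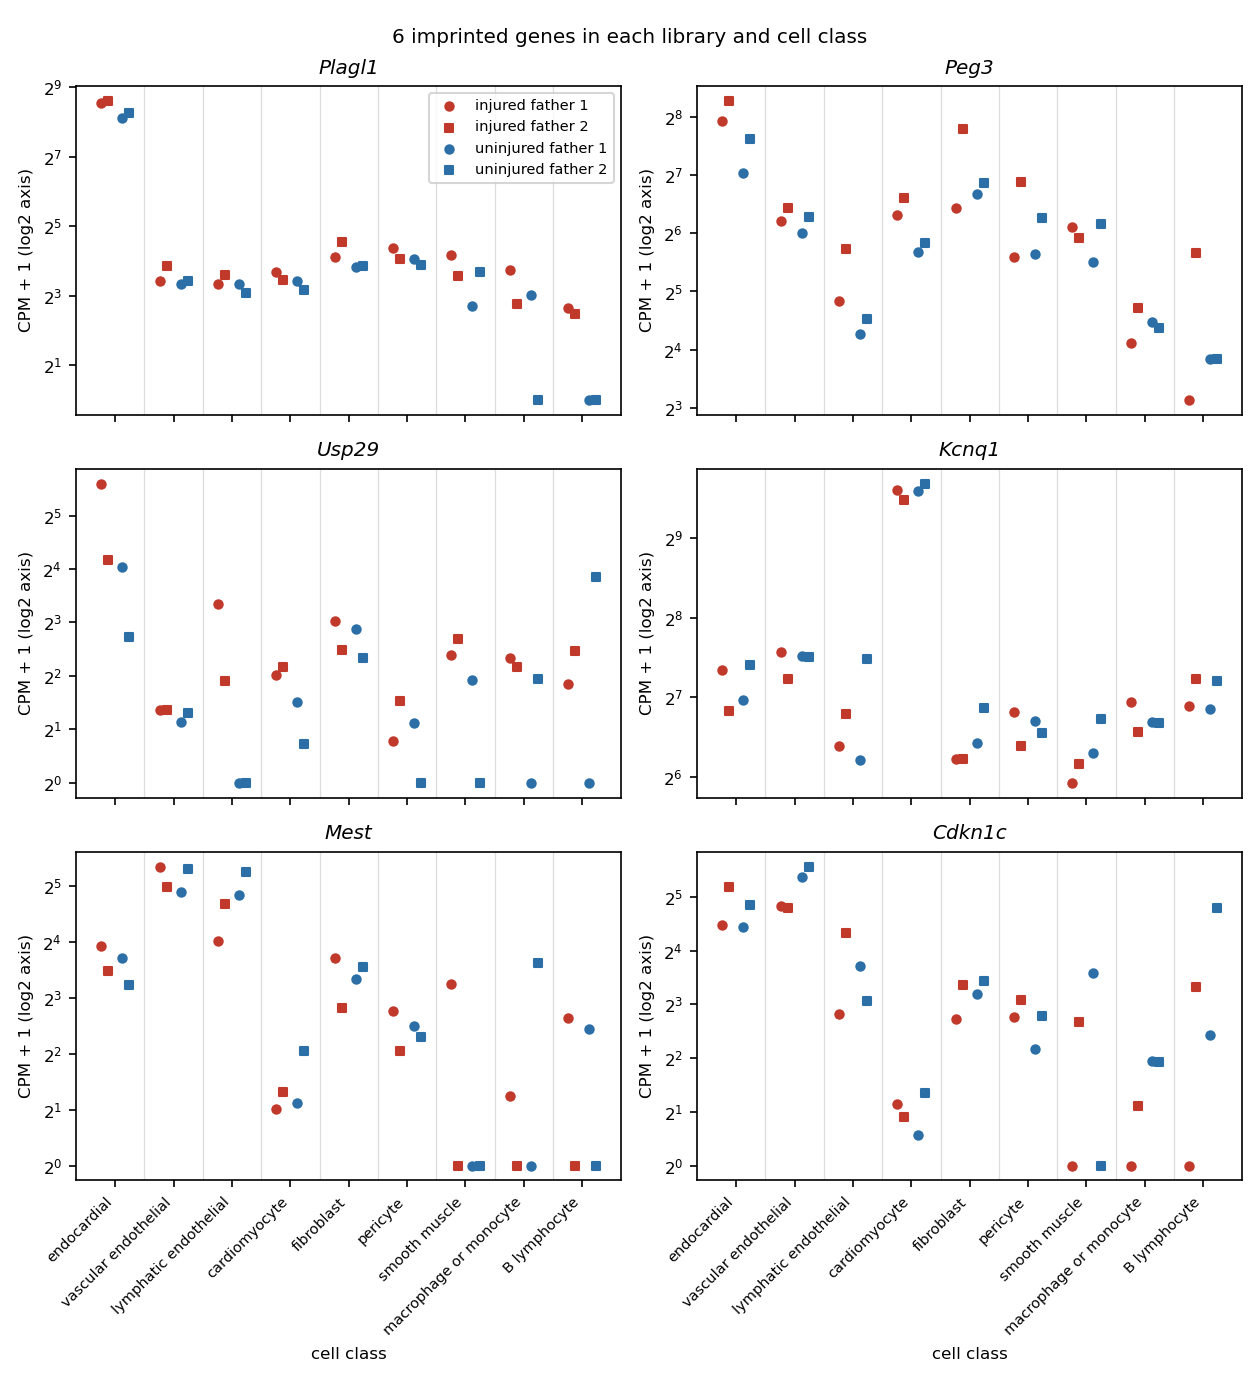
Level of 6 imprinted genes in each library, as CPM + 1 on a log2 axis, for the 9 tested cell classes; red marks are injured-father libraries 1 (circle) and 2 (square), blue marks uninjured-father libraries 1 and 2. Plagl1 stands at 278 to 389 CPM in endocardial-like nuclei of all 4 libraries, and Peg3 is highest in injured-father library 2 in 8 of the 9 classes.

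The remaining 11 genes stayed under 10 CPM in all 9 classes. The Notch-like ligand gene Dlk1 had 14 UMIs, the necdin gene Ndn 235, Snrpn 241, Nap1l5 62, the Ras exchange factor gene Rasgrf1 78, Dio3 (the deiodinase that inactivates thyroid hormone) 2 and Magel2 1. Fibroblast-like nuclei gave 125 of the Ndn UMIs (53.2%) from 20.8% of all UMIs. Cardiomyocyte-like nuclei gave 133 of the Snrpn UMIs (55.2%) from 47.0% of all UMIs. Snrpn averaged more in smooth muscle- and pericyte-like nuclei, at 4.21 and 3.68 CPM, than in cardiomyocyte-like nuclei. The Snrpn count is uncertain because the gene overlaps Snurf on the same strand. Phlda2, a brake on placental growth, had 0 of 103532415 UMIs, which allows up to 0.0290 CPM. Slc22a3, a transporter of organic cations, and Zim1, a zinc finger gene beside Peg3, reached that level only outside the 9 classes. Slc22a3 stood at 357 and 155 CPM in adipocyte-like nuclei with injured fathers, against 135.5 and 135 CPM with uninjured fathers, and averaged at most 6.35 CPM over the libraries in the 9 classes. Of its 261 UMIs in adipocyte-like nuclei, 184 came from injured-father library 1 and 7 from the uninjured-father libraries. Zim1 stood at 15.5 and 70.7 CPM there with injured fathers, from 40 UMIs, and had 0 UMIs there with uninjured fathers, whose adipocyte-like nuclei were few.

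Likeness between 2 of the 21 genes was measured as Pearson's r of log2(mean CPM + 1) over the 9 classes, which share libraries and depth. The most alike pairs of 210 were Peg3 with Plagl1 (r = 0.82), Cdkn1c with Mest (r = 0.79) and Peg3 with Grb10 (r = 0.78), and the median pair had r = 0.092. Peg3 with its neighbour Usp29 had r = 0.45. The least alike pair was Cdkn1c with Ppp1r9a (r = -0.85).

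The comparison of fathers in all nuclei found 0 of 28 imprinted genes past an adjusted p of 0.05 with edgeR's quasi-likelihood test, where 0.101% of all 14891 genes passed. The other 4 genes (Dlk1, Dio3, Magel2 and Phlda2) had too few UMIs to be tested. At an unadjusted p under 0.05 there were 5 of the 28, against 6.99% of all genes, and DESeq2 called 1, Plagl1 (adjusted p = 0.0428), where it called 0.658% of all genes. For 5 of the 28 the injured-father libraries were the highest pair, against 20.5% of all genes, and for 4 they were the lowest pair, against 14.2%. The 13 paternally expressed genes tested had a median log2 fold change (injured over uninjured father) of 0.028, with 9 positive and 4 negative values. The 14 maternally expressed genes had a median of -0.076, with 5 positive and 9 negative values, and all genes tested had a median of -0.0057. In bulk sums, more nuclei of a class and more RNA per nucleus cannot be told apart.

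Plagl1 and its fellow paternally expressed genes Peg3 and Usp29 had higher levels in both injured-father libraries, without passing the adjusted threshold. Plagl1 stood at 29.6 and 37.0 CPM in all nuclei with injured fathers, against 21.1 and 17.2 CPM with uninjured fathers (edgeR log2 fold change 0.77, standard error, SE, 0.18, adjusted p = 0.370). The groups did not overlap. Endocardial-like nuclei were 3.58% and 4.57% of nuclei with injured fathers, against 3.01% and 2.503% with uninjured fathers, and the 7 endocardial markers, all detected, summed to 857 and 1130 CPM with injured fathers, against 736 and 555 CPM with uninjured fathers. Without endocardial-like and unnamed nuclei, an alternative chosen after seeing the data, the log2 fold change of Plagl1 was 0.37 (adjusted p = 0.770, edgeR). Within endocardial-like nuclei it was 0.42 (SE 0.16, adjusted p = 0.810). Without injured-father library 1 the log2 fold change in all nuclei was 0.94, and without injured-father library 2 it was 0.58. With all libraries Plagl1 passed the threshold with DESeq2, without the low-count filter and with replicate number as a block, and in no other alternative. Calls over all genes were also more there (98, 196 and 210, against 15).

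Peg3 stood at 82.8 and 138.5 CPM in all nuclei with injured fathers, against 65.1 and 76.0 CPM with uninjured fathers (edgeR log2 fold change 0.64, SE 0.23, adjusted p = 0.618). Usp29 stood at 5.73 and 4.63 CPM with injured fathers, against 3.15 and 1.85 CPM with uninjured fathers (0.97, SE 0.32, adjusted p = 0.552). In both genes the groups did not overlap, and Usp29 is named here after its values were seen. The Peg3 difference rested largely on injured-father library 2. Leaving that heart out gave a log2 fold change of 0.20 (adjusted p = 0.893), and leaving out injured-father library 1 gave 0.98 (adjusted p = 1.21e-06). The injured-father hearts were the highest pair in 3 of 9 classes for Peg3, 5 of 9 for Plagl1 and 6 of 9 for Usp29. The means of Plagl1 and Peg3 were higher with injured fathers in 9 of 9 classes, but so was that of the maternally expressed Trappc9, and the classes share the same 4 hearts and are not separate evidence.

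Slc22a3 had the largest difference of the 28 in all nuclei, at 13.3 and 5.69 CPM with injured fathers, against 4.10 and 2.94 CPM with uninjured fathers (edgeR log2 fold change 1.36, SE 0.40, adjusted p = 0.512). The groups did not overlap. Adipocyte-like nuclei gave 58.8% and 37.4% of its UMIs with injured fathers, against 3.88% and 4.35% with uninjured fathers, and they were 2.11% and 1.19% of nuclei with injured fathers, against 0.170% and 0.103% with uninjured fathers. The 9 adipocyte markers, all detected, summed to 361 and 321 CPM in all nuclei with injured fathers, against 168 and 218 CPM with uninjured fathers. Without adipocyte-like and mesothelial-like nuclei the log2 fold change was 0.40 (adjusted p = 0.939), and without injured-father library 1 it was 0.66 (adjusted p = 0.653). Without injured-father library 2 it was 1.84 (adjusted p = 4.23e-08), and the highest adjusted p over the alternatives was 0.998. Zim1, with 12.05% of its UMIs in adipocyte-like nuclei, stood at 2.72 and 4.53 CPM with injured fathers, against 2.70 and 2.17 CPM with uninjured fathers (adjusted p = 0.846, edgeR), and is also named here after its values were seen. Without injured-father library 2 its log2 fold change was 0.095, against 0.55 with all libraries.

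**Figure D3:**
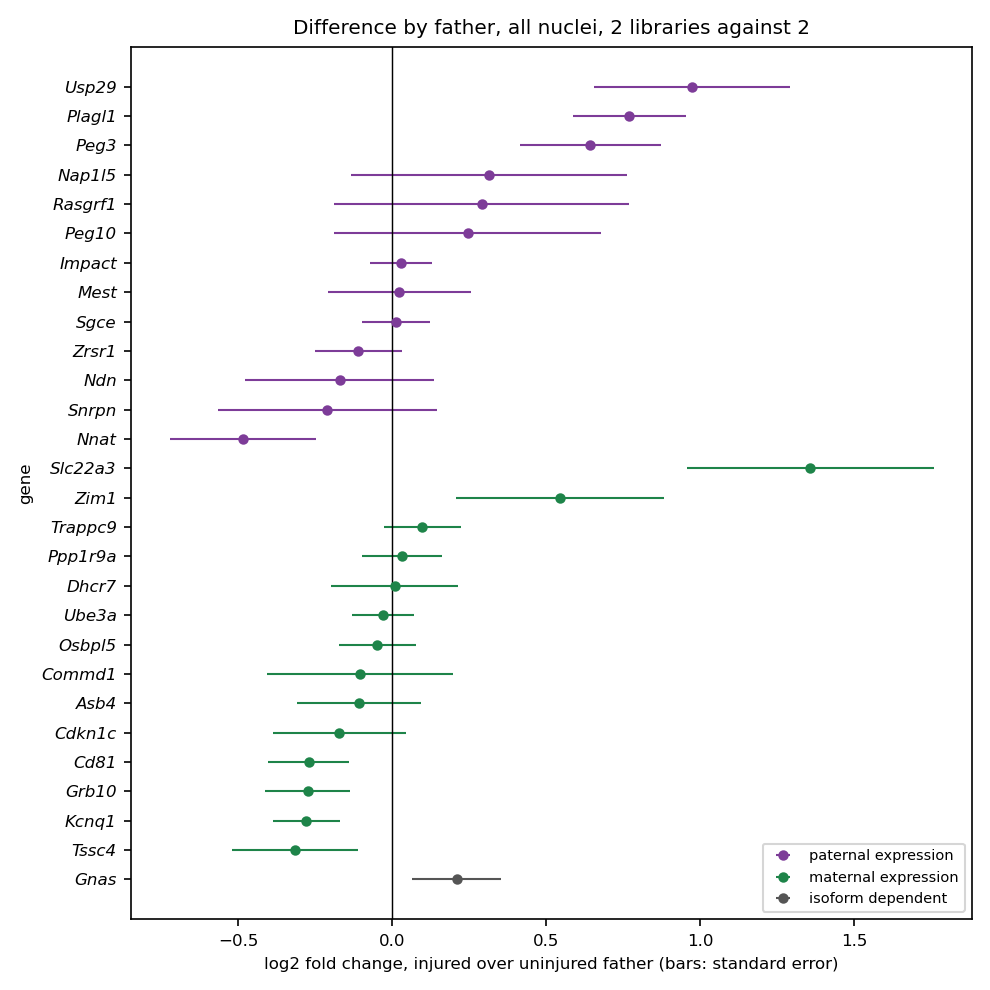
Log2 fold change (injured over uninjured father, horizontal axis) in all nuclei for the 28 imprinted genes tested, with standard errors as bars; paternally expressed genes are above, maternally expressed genes below and Gnas last. Usp29, Plagl1, Peg3 and Slc22a3 lie at 0.64 to 1.36, Zim1 at 0.55 and Nnat at -0.49, and the other 22 between -0.315 and 0.31.

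Kcnq1 and Nnat had the smallest p among genes lower with injured fathers. Kcnq1 stood at 394 and 375.5 CPM with injured fathers, against 452 and 471 CPM with uninjured fathers (edgeR log2 fold change -0.28, SE 0.11, adjusted p = 0.650), and the groups did not overlap. Cardiomyocyte-like nuclei, its main source, were 23.1% and 26.6% of nuclei with injured fathers, against 30.6% and 31.3% with uninjured fathers. Within cardiomyocyte-like nuclei Kcnq1 overlapped between the groups. Nnat stood at 7.26 and 7.85 CPM with injured fathers, against 8.01 and 13.4 CPM with uninjured fathers (-0.49, SE 0.24, adjusted p = 0.762). The Nnat value rested largely on uninjured-father library 2, without which it was -0.15 (adjusted p = 0.998).

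Grb10 was at 331 and 394 CPM with injured fathers, against 443 and 423 CPM with uninjured fathers (edgeR log2 fold change -0.27, adjusted p = 0.768). Its groups did not overlap. The injured-father hearts were the lowest pair in 5 of the 9 classes. Cd81 was at 64.5 and 58.0 CPM with injured fathers, against 62.8 and 84.1 CPM with uninjured fathers (adjusted p = 0.762, edgeR). These groups overlapped.

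Most other genes of sufficient level were close to even. Sgce stood at 84.2 and 91.9 CPM with injured fathers, against 85.9 and 86.6 CPM with uninjured fathers. Impact stood at 70.0 and 64.1 CPM with injured fathers, against 62.6 and 67.3 CPM with uninjured fathers. Ube3a stood at 196 and 195 CPM with injured fathers, against 191 and 203 CPM with uninjured fathers. Their groups overlapped.

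Ppp1r9a stood at 283 and 304.5 CPM with injured fathers, against 300 and 267 CPM with uninjured fathers. Trappc9 stood at 296 and 271 CPM with injured fathers, against 275 and 247 CPM with uninjured fathers. Both overlapped. Osbpl5 stood at 26.7 and 23.4 CPM with injured fathers, against 24.5 and 26.6 CPM with uninjured fathers. Gnas was highest in injured-father library 1, at 444.5 and 333 CPM with injured fathers, against 323 and 340.5 CPM with uninjured fathers. The groups overlapped in both. Zrsr1 stood at 12.6 CPM in both injured-father libraries, against 13.1 and 13.9 CPM with uninjured fathers, and did not overlap (adjusted p = 0.944, edgeR).

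By class, 0 imprinted genes passed the adjusted threshold in any of the 9 fits, with edgeR or with DESeq2. DESeq2 called 0.0351% of all genes in endocardial-, 0.169% in cardiomyocyte-, 0.0401% in fibroblast-, 0.0176% in vascular endothelial-, 0.0297% in pericyte-, 0.0241% in smooth muscle- and 0.0343% in lymphatic endothelial-like nuclei, and 0% in macrophage- or monocyte- and B lymphocyte-like nuclei. By edgeR, in endocardial-like nuclei 0 of 16 passed, where 0.082% of 8541 genes did, and 5 of the 16 had an unadjusted p under 0.05, against 5.08% of all genes. In cardiomyocyte-like nuclei 0 of 24 passed (0.00797% of 12543 genes), with 4 at an unadjusted p under 0.05 against 4.26%. In fibroblast-like nuclei 0 of 24 passed (0.00801% of 12481 genes), with 2 under 0.05 against 3% of all genes. In vascular endothelial-like nuclei 0 of 20 passed (0% of 11352 genes), with 2 under 0.05 against 5.2%. The other classes had 0 genes under 0.05. These were 16 tested in pericyte-like nuclei (0.0396% of all genes passed and 4.2% were under 0.05), 10 in smooth muscle-like nuclei (0.0482% and 4.85%), 10 in macrophage- or monocyte-like nuclei (0% and 4.6%), 9 in lymphatic endothelial-like nuclei (0% and 5.52%) and 6 in B lymphocyte-like nuclei (0% and 3%).

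Genes whose groups did not overlap were also counted, with the share among all genes in brackets. Both injured-father libraries were highest for 5 of 16 (15.4%) and lowest for 2 (18%) in endocardial-like nuclei, for 6 of 24 (14.2%) and 5 (16.3%) in cardiomyocyte-like nuclei, for 2 of 24 (12.9%) and 4 (16.5%) in fibroblast-like nuclei, and for 3 of 20 (13.2%) and 4 (21.6%) in vascular endothelial-like nuclei. They were highest for 0 of 16 (13.9%) and lowest for 3 (18.8%) in pericyte-like nuclei, for 2 of 10 (17.6%) and 2 (15.8%) in smooth muscle-like nuclei, for 0 of 10 (15.4%) and 2 (17.7%) in macrophage- or monocyte-like nuclei, for 2 of 9 (17.1%) and 0 (18.2%) in lymphatic endothelial-like nuclei, and for 3 of 6 (16.8%) and 0 (15.7%) in B lymphocyte-like nuclei.

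The smallest unadjusted p of an imprinted gene in any class belonged to Peg3, in endocardial-like nuclei and then in cardiomyocyte-like nuclei. In endocardial-like nuclei, with the values given above, its log2 fold change was 0.86 (SE 0.20, adjusted p = 0.169, edgeR). In cardiomyocyte-like nuclei it stood at 78.3 and 96.1 CPM with injured fathers, against 50.1 and 56.0 CPM with uninjured fathers (0.74, SE 0.15, adjusted p = 0.375). In both classes the groups did not overlap. The endocardial value passed the threshold without injured-father library 1 (log2 fold change 1.03, adjusted p = 0.00287) and without uninjured-father library 2 (1.10, adjusted p = 0.00747). It did not pass without injured-father library 2 (0.65, adjusted p = 0.485) or without uninjured-father library 1 (0.57, adjusted p = 0.627), and DESeq2 gave an adjusted p of 1.0.

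In fibroblast-like and pericyte-like nuclei the Peg3 difference rested on injured-father library 2. Pericyte-like nuclei stood at 47.3 and 118 CPM with injured fathers, against 49.0 and 76.2 CPM with uninjured fathers, and the groups overlapped in both classes. The log2 fold change was 0.54 (adjusted p = 1.0) in fibroblast-like and 0.50 (adjusted p = 0.999) in pericyte-like nuclei. Without injured-father library 1 it was 1.06 (adjusted p = 3.78e-05) and 0.99 (adjusted p = 0.00604), and without injured-father library 2 it was -0.34 and -0.33. In vascular endothelial-like nuclei it was 0.23 (adjusted p = 0.961).

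**Figure D4:**
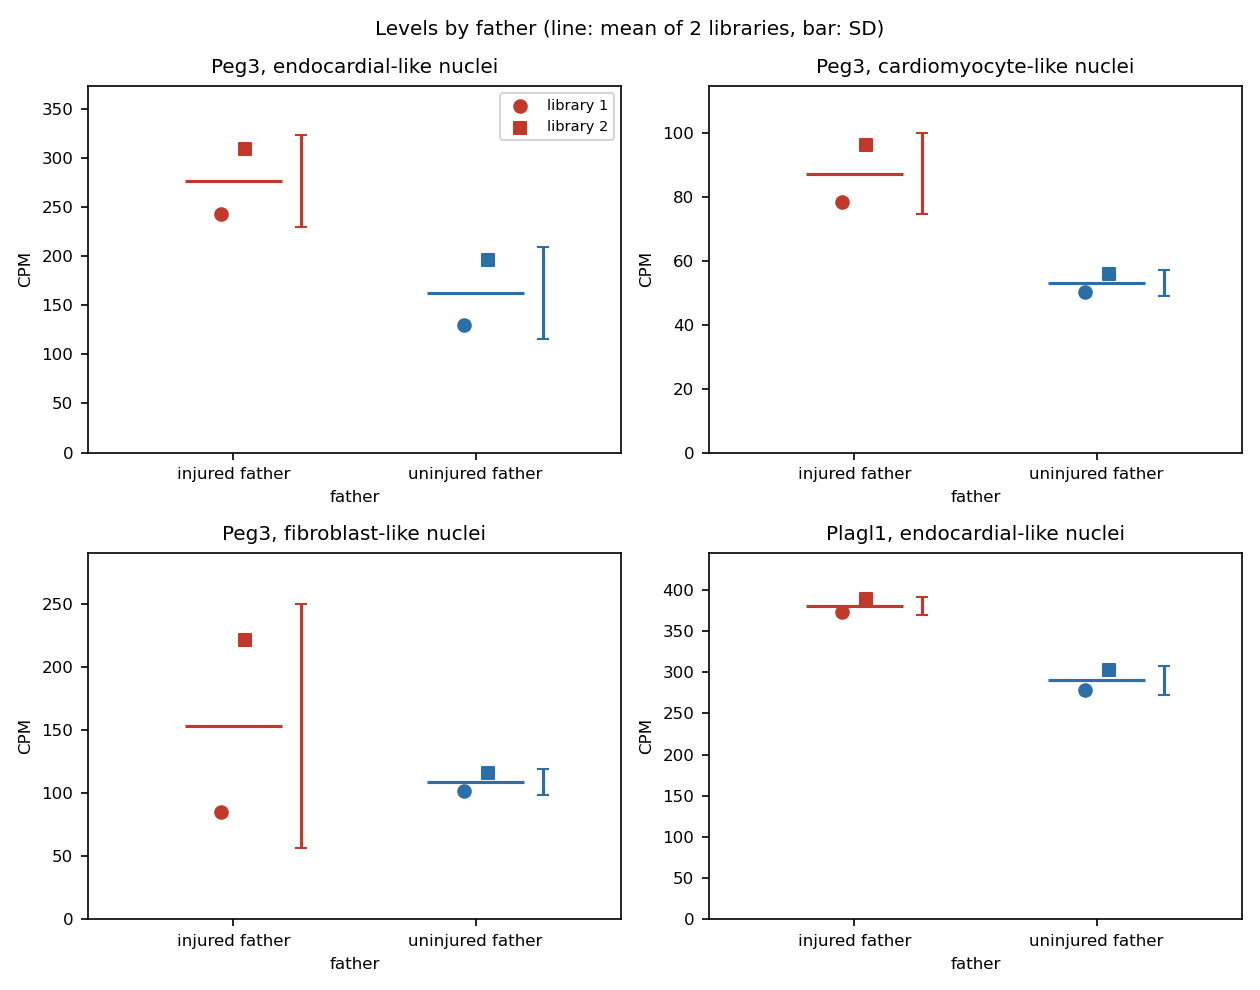
Peg3 in endocardial-like, cardiomyocyte-like and fibroblast-like nuclei and Plagl1 in endocardial-like nuclei, in CPM, by father; circles are library 1 and squares library 2 of each group, lines the mean and bars the SD of 2 libraries. In fibroblast-like nuclei injured-father library 2 stands at 222 CPM and the other 3 libraries at 85.1 to 116 CPM.

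The other genes of endocardial-like nuclei with an unadjusted p under 0.05 were Plagl1 (above), Osbpl5, Usp29 and Zrsr1, and the last of these and Usp29 are named there after their values were seen. Osbpl5 stood at 35.4 and 33.2 CPM with injured fathers, against 64.8 and 53.2 CPM with uninjured fathers (edgeR log2 fold change -0.81, SE 0.28, adjusted p = 0.709). Usp29 had a log2 fold change of 1.28 (adjusted p = 0.925) from 81 UMIs. Leaving out injured-father library 1 gave 0.50 (adjusted p = 1.0), and leaving out library 2 of that group gave 1.92 (adjusted p = 0.0186). Zrsr1 stood at 17.7 and 18.99 CPM with injured fathers, against 8.79 and 2.80 CPM with uninjured fathers, from 52 UMIs in all (1.39, adjusted p = 0.829). In each of the 5 genes the groups did not overlap. Cd81 stood at 76.8 and 58.3 CPM with injured fathers, against 80.2 and 95.2 CPM with uninjured fathers (adjusted p = 0.999, edgeR).

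In cardiomyocyte-like nuclei Usp29 stood at 3.02 and 3.45 CPM with injured fathers, against 1.85 and 0.649 CPM with uninjured fathers (edgeR log2 fold change 1.23, adjusted p = 0.988). Grb10 stood at 282 and 314 CPM with injured fathers, against 398 and 380 CPM with uninjured fathers (-0.36, adjusted p = 0.970). Nnat, with the values given above, had a log2 fold change of -0.77 (adjusted p = 1.0), which was -0.34 without uninjured-father library 2. In these 3 genes the groups did not overlap.

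In vascular endothelial-like nuclei Cdkn1c stood at 27.5 and 26.9 CPM with injured fathers, against 40.2 and 46.3 CPM with uninjured fathers (edgeR log2 fold change -0.62, SE 0.17, adjusted p = 0.800). The injured-father hearts were the lowest pair. Cd81 stood at 136 and 104 CPM with injured fathers, against 148 and 189 CPM with uninjured fathers (-0.44, adjusted p = 0.832). Dhcr7 was at 4.74 and 4.48 CPM with injured fathers, against 3.30 and 1.95 CPM with uninjured fathers (adjusted p = 0.961, edgeR).

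In fibroblast-like nuclei Plagl1 had a log2 fold change of 0.57 (adjusted p = 1.0, edgeR). Kcnq1 stood at 73.6 and 73.8 CPM there with injured fathers, against 84.8 and 115 CPM with uninjured fathers (-0.41, adjusted p = 1.0). In both genes the groups did not overlap. Dhcr7 was at 3.98 and 3.32 CPM with injured fathers, against 5.04 and 5.22 CPM with uninjured fathers (adjusted p = 1.0, edgeR).

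In the remaining classes Grb10 had a log2 fold change below 0 and Trappc9 one above 0, none past the threshold. The log2 fold change of Grb10 in endocardial-like nuclei was 0.024. For Grb10 it was -0.46 (adjusted p = 0.985, edgeR) in macrophage- or monocyte-like, -0.25 (adjusted p = 0.966) in lymphatic endothelial-like, -0.23 (adjusted p = 0.999) in pericyte-like, -0.39 (adjusted p = 0.997) in smooth muscle-like and -0.18 (adjusted p = 0.998) in B lymphocyte-like nuclei. For Trappc9 it was 0.11, 0.23, 0.18, 0.33 and 0.27 in the same order of classes (adjusted p of 0.993 or higher in edgeR). Leaving out uninjured-father library 2 turned Trappc9 below 0 in macrophage- or monocyte-, pericyte- and smooth muscle-like nuclei, and leaving out library 1 of either group turned Grb10 above 0 in B lymphocyte-like nuclei. Sgce was at -0.21 in macrophage- or monocyte-like and -0.42 in lymphatic endothelial-like nuclei, and Ppp1r9a at 0.098 and 0.34 in the same classes. Gnas was at 0.41 in smooth muscle-like and 0.18 in B lymphocyte-like nuclei. Kcnq1 was at -0.46 in smooth muscle-like nuclei and Cd81 at -0.25 in pericyte-like nuclei. For Kcnq1 and Cd81 there, both injured-father libraries were below the uninjured-father ones.

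Whether the father difference varied between classes was tested in 1 fit over the 9 classes with the library as a term. It found 0 imprinted genes past the threshold, where 0.164% of 12166 genes passed, and Dhcr7 had the smallest p of them (adjusted p = 1.0, edgeR). Without injured-father library 2 the test called Peg3 (adjusted p = 0.0238). DESeq2 was not run for it.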

How the data were processed

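Per the file headers, counting was done by Cell Ranger 6.0.1. The submitters' processing notes also name Seurat 4.0. The deposited files hold raw counts per gene and barcode, with no normalization. Per the labels' protocols, nuclei of snap-frozen hearts were sorted against Ter119 and read at the 3′ end. No source used here names the build of the counts. Positions are from GENCODE M21 (GRCm38), which matched 21830 of 21884 genes.

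Nuclei with at least 500 UMIs, 300 genes and under 5% mitochondrial UMIs were kept, and Scrublet doublets (9.62% to 14.9% per library) were removed. Leiden clustering (scanpy 1.11.5, leidenalg 0.10.2, resolution 1.0) used 3000 variable genes without imprinted genes, 30 principal components and 20 neighbours. The 20 clusters were named by 19 marker lists, with 20 CPM added before each fold. A rule chosen after the clusters were seen left 2 unnamed, where another lineage's list scored over 0.5 of the best. T or NK lymphocyte-, adipocyte-, Schwann- or glial- and mesothelial-like nuclei fell short of 50 in a library and were not tested.

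UMIs were summed per class and library and tested with edgeR 4.0.16 (R 4.3.3; quasi-likelihood, TMM, filterByExpr with a minimum count of 10, two-sided, Benjamini-Hochberg over all genes tested). DESeq2 1.42.0 was an alternative. A standard error is the size of the log2 fold change divided by the root of F. The tests in all nuclei, in cardiomyocyte-like nuclei and between classes were checked on simulated counts with large known changes, which they recovered. The same spread was assumed for every gene. Smaller changes and the fits of the other classes were not simulated. Leaving out a library leaves 1 in its group, which is assumed to vary like the others. The genes and lists were chosen with earlier results of these data known. Named genes are those past the threshold and otherwise, in each fit, up to 2 per direction with the smallest p, plus per-library values in all nuclei for those of at least 10 CPM.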

Additional observations from a re-analysis of the deposited data

How the results depend on the processing

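Of 672 alternative values of 61 results, 631 were counted as unchanged. No imprinted gene passed the threshold in the main fits, so no call could be lost, and this number does not measure robustness. For single genes, unchanged means the same direction and side of the threshold. For counts of genes it means a ratio within a set limit, or an equal count where the main count was 0. For the 2 medians it means a shift below the spread between libraries (0.232 for paternally and 0.196 for maternally expressed genes), so their sign could change. The number of imprinted genes called in all nuclei was 0, but 1 with DESeq2, 2 without the low-count filter (Plagl1 and Slc22a3) and 0 to 2 with 1 library left out (2 without injured-father library 1, Peg3 and Plagl1, and 1 without injured-father library 2, Slc22a3). Without the low-count filter, calls over all genes numbered 182 in cardiomyocyte-like and 45 in endocardial-like nuclei, against 1 and 7 with it. The number of imprinted genes called in each of these fits without the filter was 1, Peg3. With 1 library left out it was 0 to 1 in endocardial-like (Peg3 or Usp29), fibroblast-like and pericyte-like nuclei (Peg3) and in the test of differences between classes. In the endocardial-, fibroblast- and pericyte-like fits with such a call, calls over all genes were also more than with all libraries. The count of imprinted genes called in all nuclei stayed at 0 without endocardial-like and unnamed nuclei. Deviations of same-numbered libraries from their group means had correlations of -0.012 to 0.083 over the fits. With 2 libraries per group, these cannot decide whether replicate numbers pair the libraries. With the replicate number as a block, 2 imprinted genes were called in all nuclei (Plagl1 and Slc22a3). In cardiomyocyte-like and in endocardial-like nuclei 1 was called with the block, Peg3. Calls over all genes with it numbered 210 in all nuclei, 80 in cardiomyocyte-like and 37 in endocardial-like nuclei. Without the block they numbered 15, 1 and 7. The cause of these shifts was not tested.

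With 1 library left out, the log2 fold change changed sign within the range of -0.46 to 0.13 (0.10 in another) for Grb10 in B lymphocyte-like, -0.34 to 1.06 for Peg3 in fibroblast-like and -0.33 to 0.99 in pericyte-like, -1.07 to 0.017 for Sgce in lymphatic endothelial-like, -0.0021 to 0.17 for Ppp1r9a in macrophage- or monocyte-like and, for Trappc9, -0.11 to 0.43 in macrophage- or monocyte-like, -0.0076 to 0.43 in pericyte-like and -0.086 to 1.15 in smooth muscle-like nuclei. None of the values of changed sign was past the threshold. The median over paternally expressed genes ran between -0.040 and 0.26 with 1 library left out, and that over maternally expressed genes between -0.13 and -0.0014. The top class of the 21 genes was kept for 18 to 21 of them in the alternatives run. Calls over all genes in all nuclei numbered 98 with DESeq2, 196 without the low-count filter, 0 to 542 with 1 library left out and 1 without adipocyte-like and mesothelial-like nuclei. Depth limited the genes that could be tested, to 28 of 32 in all nuclei but 6 in B lymphocyte-like and 9 in lymphatic endothelial-like nuclei.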

Other observations

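Other imprinted genes, from a list of 36 of which 27 are among the genes counted, also had class patterns, and those named for theirs were chosen after their values were seen. Igf2, the fetal growth factor, was highest in endocardial-like nuclei, at 9.88 to 14.2 CPM over the 4 libraries, against at most 0.892 CPM on average in the other 8 tested classes (44 of its 77 UMIs were in endocardial-like nuclei). Gm49394 overlaps Igf2 on the same strand, so its count is uncertain. Inpp5f, an inositol phosphatase gene, was highest in B lymphocyte-like nuclei at 168 CPM and lowest in cardiomyocyte-like nuclei at 10.2 CPM. Sfmbt2, a Polycomb gene, averaged 72.5 CPM in pericyte-like nuclei, against 29.97 CPM in lymphatic endothelial-like nuclei, the next of the 9 classes. Slc38a4, an amino acid transporter gene, averaged 49.85 CPM in cardiomyocyte-like and 35.5 CPM in fibroblast-like nuclei. Of maternally expressed genes, Igf2r averaged 333 CPM in endocardial-like and 309 CPM in pericyte-like nuclei. Pon2 averaged 85.3 and 73.0 CPM in the same classes. For both genes these were the highest classes, and their ranges overlapped.

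By father, 0 of 22 of these genes passed the threshold in all nuclei with edgeR (2 at an unadjusted p under 0.05), and 0 of 20 tested regulators of imprints did (0 at an unadjusted p under 0.05), where 0.101% of all genes passed and 6.99% were under 0.05. The injured-father hearts were the highest pair for 7 of the 22 and 6 of the 20, against 20.5% of all genes, and the lowest pair for 1 of each list, against 14.2%. DESeq2 was not counted over these lists. Zdbf2 stood at 2.12 and 2.46 CPM with injured fathers, against 0.795 and 1.53 CPM with uninjured fathers (edgeR log2 fold change 1.04, adjusted p = 0.623). Igf2 stood at 0.807 and 1.10 CPM with injured fathers, against 0.445 and 0.511 CPM with uninjured fathers (1.00, adjusted p = 0.696). Among regulators, Yy1 differed by 0.17 (adjusted p = 0.817, edgeR) and Tet3, a methylcytosine dioxygenase, by 0.18 (adjusted p = 0.846). In these 4 genes the injured-father hearts were the highest pair.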
